A study of Mus musculus with 4 samples.

Results

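Primary fibroblasts of third-generation (G3) Terc-deficient mouse embryos were compared with wild-type ones, 1 RNA sequencing library against 1, out of 4 libraries in the series. Values were joined on gene symbol, symbols of short RNAs (microRNAs, small nucleolar, Cajal body and nuclear RNAs) were left out, and 11676 of the 22497 remaining symbols had a mean of 1 FPKM or more over the 2 libraries and were described. FPKM counts fragments per kilobase of a transcript and divides them by the mapped fragments of the library. The gene just inside that minimum was Unc5a (mean 1.00 FPKM) and the one just outside was Cep70 (mean 0.997 FPKM).

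All 4 cultures were primary embryo fibroblasts on the C57BL/6 strain, per the labels. Their genotypes were wild type, Gadd45-/-, G3 Terc-/- and G3 Gadd45-/-Terc-/-, with 1 library each, and the series' design names the deleted gene as Gadd45a. The labels do not say how many embryos gave a culture, its passage number or its age in culture. They name no Cre or other driver for the deletions. With 1 library a side there is no replicate check, so every difference below is one between 2 cultures, and none was tested.

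Telomerase adds repeats to chromosome ends and copies them from an RNA template that the Terc gene encodes, with Tert as the catalytic protein. Mice that lack Terc are bred to each other over generations, and their telomeres shorten with each one. Cells with very short telomeres can stop dividing and become senescent, a state known for the secretion of many proteins. The description that follows goes beyond inflammatory and mitotic genes, to secreted proteins, membrane transporters, receptors and transcription factors.

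The targeted RNA was at the limit of what these libraries show. Terc had 0.530 FPKM in wild type, 0.259 in the Gadd45-/- library and 0 in each G3 library. Tert was at 1.21, 1.12, 2.23 and 2.01 FPKM (wild type, Gadd45-/-, G3 Terc-/- and G3 Gadd45-/-Terc-/-). Gadd45a went against its labels (22.9, 33.9, 31.4 and 45.1 FPKM), so the other 2 cultures are called the Gadd45a-labelled culture (Gadd45-/-) and the doubly labelled culture (G3 Gadd45-/-Terc-/-). Depth was estimated at 19200000 to 19900000 fragments a library, at which 1 FPKM on a 2 kb transcript stands for 38.4 to 39.8 fragments. All 12 fibroblast markers were above 1 FPKM in both libraries, and they summed to 13560 FPKM in wild type against 8961 in the G3 Terc-deficient library.

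Markers of other cell types were low, and some of their sums differed between the libraries. Of 14 macrophage and leukocyte markers 13 stood below 1 FPKM in 3 of the libraries, 7 of them were listed at 0 in the G3 Terc-deficient library, and the sum was 4.70 FPKM in wild type and 3.71 in that library. The doubly labelled culture stood apart, with 8 of the 14 below 1 FPKM and a sum of 22.5 FPKM, of which Lyz2 made up 11.5, and with the complement genes C1qa and C1qc at 2.17 and 1.95 FPKM. The part of leukocytes in the values of that culture was not tested. Summed levels of 10 endothelial markers were 22.1 and 5.14 FPKM (9 below 1 FPKM in each), of 10 epithelial markers 21.4 and 9.54 FPKM, of 7 cardiac markers 25.9 and 2.51 FPKM, of 6 hepatocyte markers 9.72 and 0.533 FPKM, and of 7 glial and neural crest markers 2.16 and 11.4 FPKM. Single genes carried several of these sums, namely Flt1, Tnnt2 and S100b. The hepatocyte sum in wild type was spread over Alb (5.40 FPKM), Apoa1 (1.90 FPKM), Fgb (1.05 FPKM) and Ttr (1.01 FPKM). The hepatocyte sum was also low in the Gadd45a-labelled culture (0.0601 FPKM) and the doubly labelled one (0.0932 FPKM), so wild type alone was high. In whole cultures fewer cells of a type and less RNA per cell cannot be told apart, and the part of other cell types in the differences below was not tested.

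By a size rule of at least 1 on the log2(FPKM + 1) scale, a 2-fold difference of FPKM + 1, 1216 genes (10.4%) were higher and 730 (6.25%) lower in the G3 Terc-deficient library than in wild type. The other 9730 genes (83.3%) were on neither side, and the median difference over all genes kept was 0.01. Differences of 2 or more were found in 352 genes and of -2 or less in 110. Many of the higher genes started from little: 353 of them (29%) stood below 1 FPKM in wild type, 15 of these being listed at 0. Of the lower genes, 135 (18.5%) stood below 1 FPKM in the G3 Terc-deficient library. A pseudocount of 1 makes differences of such low genes smaller than their ratios, and ratios are given below only where both levels were at least 1 FPKM.

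**Figure D1:**
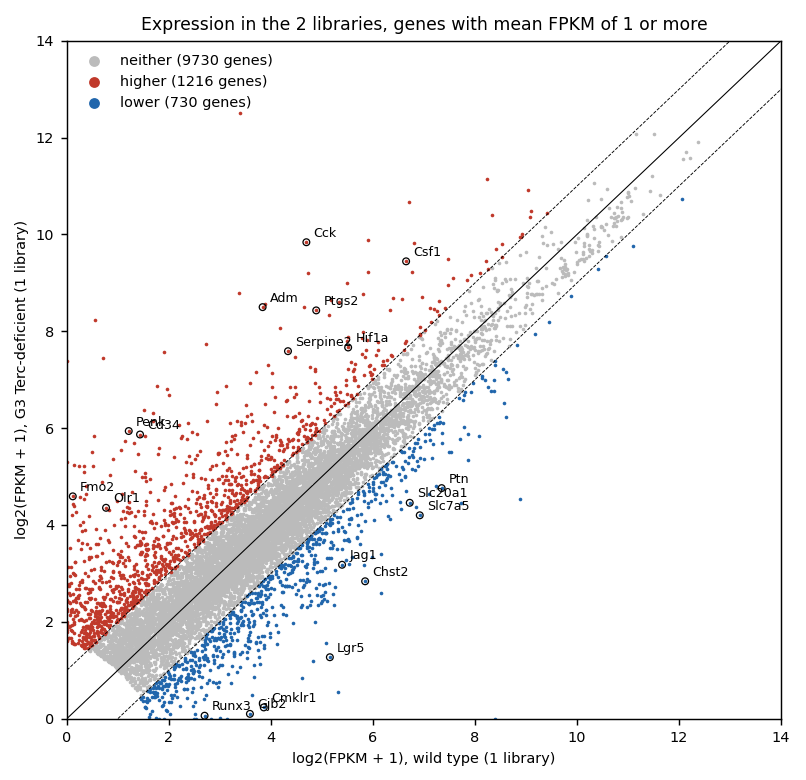
Each point is 1 of the 11676 genes kept, at its log2(FPKM + 1) in wild type (x axis) and in the G3 Terc-deficient library (y axis), 1 library each. The dashed lines mark the size rule, with 1216 genes above the upper line (red) and 730 below the lower one (blue). Circled names are genes described in the text.

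Genes were then grouped into 49 lists by family or role. More members were higher than lower in 31 lists, more were lower in 14, and 4 had as many of each. Apart from the prolactin family, the lists with the greatest share of higher members were secreted or made small secreted molecules: 16 of 24 measured members of the serpin, cystatin and whey acidic protein list, 15 of 31 of the peptide hormone list, 9 of 21 of the prostaglandin and leukotriene list and 23 of 54 of the growth factor list. All 4 measured prolactin family genes were higher too, but each stood below 1 FPKM in wild type. They reached the minimum mean only through the G3 Terc-deficient library, so their direction followed from the minimum and is no result about the family. Amino acid carriers (10 lower, 1 higher of 28), keratins and other intermediate filaments (4 lower, 1 higher of 10), guidance and neurotrophic receptors (4 lower, 0 higher of 11) and the Notch pathway (6 lower, 3 higher of 20) stood on the opposite side. Members are genes with a mean of 1 FPKM or more, so low genes entered a list more readily when 1 library was high, and these shares are descriptions only.

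**Figure D2:**
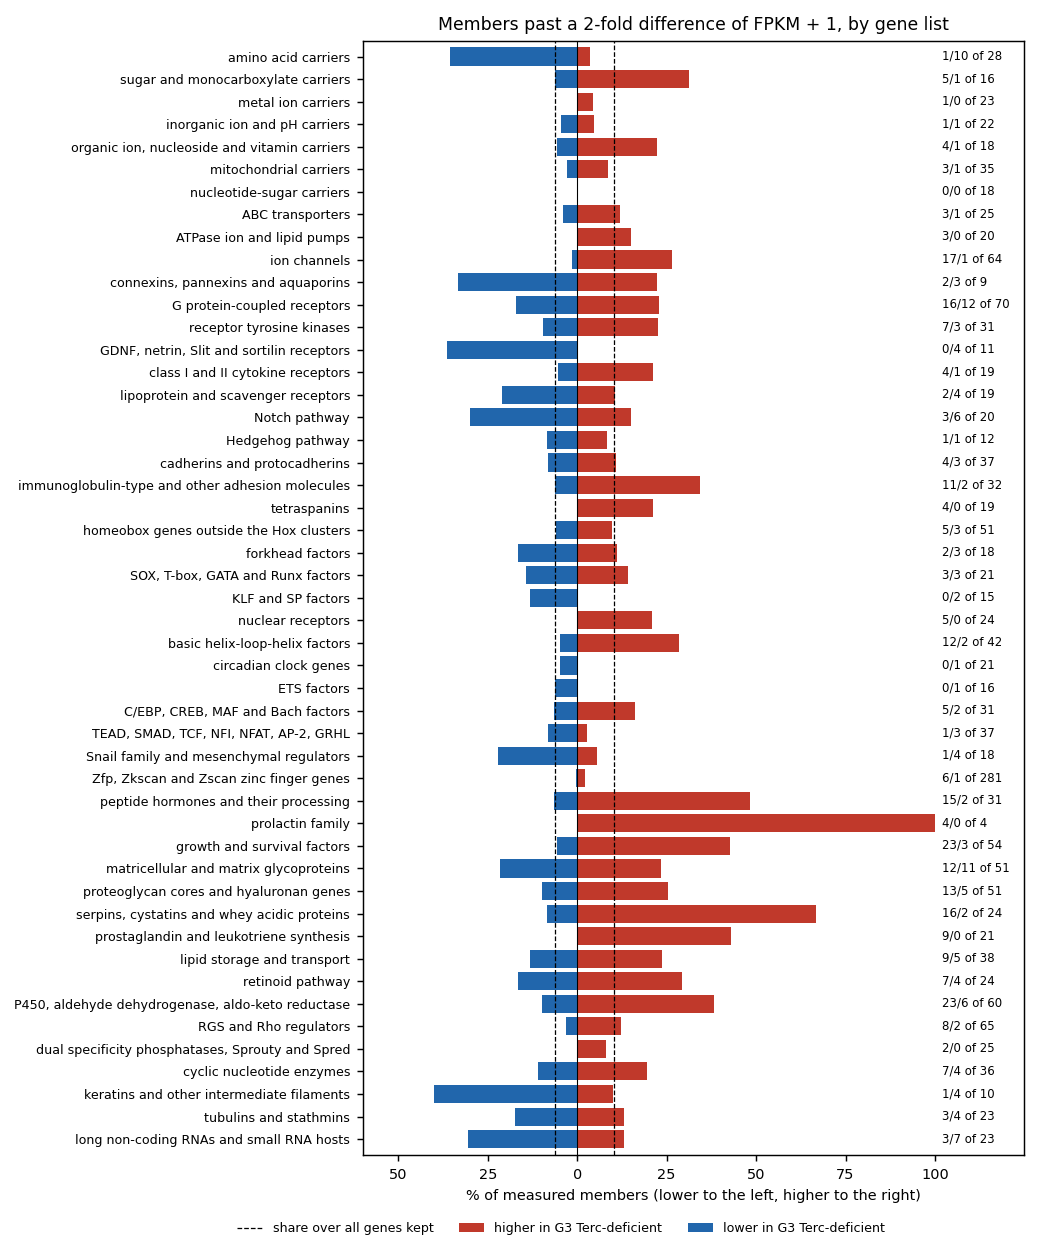
For each of 49 gene lists, bars give the percentage of measured members that were higher (red, to the right) or lower (blue, to the left) in the G3 Terc-deficient library than in wild type by the size rule. Dashed lines mark the shares over all 11676 genes, 10.4% higher and 6.25% lower, and the numbers at the right give higher and lower members of those measured.

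Peptide hormone genes were among the largest differences. Of 31 measured members of the hormone and processing list 15 were higher and 2 lower, with a median difference of 0.93 against 0.01 over all genes. Cck, the precursor of the gut and brain peptide cholecystokinin, stood at 24.9, 36.4, 914 and 184 FPKM in wild type, the Gadd45a-labelled culture, the G3 Terc-deficient library and the doubly labelled culture. Values given in fours keep this order below, and pairs are wild type and G3 Terc-deficient. The G3 Terc-deficient culture was highest for Cck, 36.8-fold above wild type, and both G3 cultures stood above both others. Adm, which encodes the vasodilator adrenomedullin, had the same order with 13.3, 21, 360.4 and 85.5 FPKM. For Penk, the enkephalin precursor, only the G3 Terc-deficient library was high, at 60.3 FPKM against 1.31, 2.69 and 1.87 FPKM in wild type and in the Gadd45a-labelled and doubly labelled cultures.

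Peptides and the enzymes that cut them were higher side by side. Vip, the precursor of vasoactive intestinal peptide, stood at 0.0387 and 6.70 FPKM. Pcsk1, a prohormone convertase that cleaves hormone precursors in secretory granules, stood at 0.0222 and 5.66 FPKM. The next 4 members were chosen after their values were seen. Among these Tac1, the precursor of substance P, stood at 0.987 and 9.59 FPKM and the neuropeptide gene Npy at 1.5 and 6.69 FPKM. Carboxypeptidase E, Cpe, which trims the cut peptides, was already abundant in wild type, at 151 and 339 FPKM. The calcium-regulating glycoprotein gene Stc1 stood at 1.75 and 11.4 FPKM.

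On the lower side of this list was Ucn2, a peptide of the corticotropin-releasing hormone family, at 2.63 and 0.191 FPKM. In the doubly labelled culture Ucn2 stood at 0.879 FPKM, between the G3 Terc-deficient and wild-type values.

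Sequences before the start of 4 of these hormone genes are shown because the genes were higher together and all 4 hold TGACG on 1 or both strands, the letters of a cyclic AMP response element half-site (CRE half-site), in capitals. They are the 250 bases before the RefSeq start in the build GRCm38.p6, 5' to 3' on the strand of the gene: Cck at chr9:121495695-121495944 (minus strand), Vip at chr10:5638968-5639217, Pcsk1 at chr13:75089607-75089856 and Tac1 at chr6:7554811-7555060 (plus strand).
Cck: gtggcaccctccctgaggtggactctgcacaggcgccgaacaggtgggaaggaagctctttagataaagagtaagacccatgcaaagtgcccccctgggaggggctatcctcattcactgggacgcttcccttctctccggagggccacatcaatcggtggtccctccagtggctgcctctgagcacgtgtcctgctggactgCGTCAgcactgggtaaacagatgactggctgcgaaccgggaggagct
Vip: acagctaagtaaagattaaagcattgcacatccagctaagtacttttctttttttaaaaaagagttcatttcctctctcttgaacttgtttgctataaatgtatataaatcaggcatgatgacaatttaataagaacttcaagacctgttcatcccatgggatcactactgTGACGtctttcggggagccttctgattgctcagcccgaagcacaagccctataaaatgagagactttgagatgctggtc
Pcsk1: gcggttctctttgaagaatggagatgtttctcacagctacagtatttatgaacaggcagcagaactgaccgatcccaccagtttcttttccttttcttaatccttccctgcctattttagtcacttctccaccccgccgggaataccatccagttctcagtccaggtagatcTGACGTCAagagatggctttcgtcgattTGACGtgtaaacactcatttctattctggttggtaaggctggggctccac
Tac1: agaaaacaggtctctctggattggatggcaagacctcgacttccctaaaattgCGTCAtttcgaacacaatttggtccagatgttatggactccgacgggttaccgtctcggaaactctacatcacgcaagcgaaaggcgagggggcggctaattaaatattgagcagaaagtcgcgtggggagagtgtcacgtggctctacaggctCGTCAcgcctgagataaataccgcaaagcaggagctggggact
The letters begin 47 bases before the start in Cck, 79 in Vip and 197 and 43 in Tac1, while Pcsk1 holds the full 8-letter palindrome TGACGTCA from 78 bases before its start and a further half-site at 50. TGACG or its reverse complement occurs in 20.8% of all 32851 RefSeq mouse promoters of 300 bases (250 before to 50 after the start), so its presence in 1 gene is common, and TGACGTCA occurs in 1.79%. The 4 genes were picked for these letters. RefSeq promoters were found for 10 of the 15 higher members of the list, under the 80% needed to compare shares, so no share of the list is given. A match of letters is not a binding site.

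Proliferins and other prolactin family genes encode hormones best known from the placenta. The 4 measured ones reached the minimum mean only through the G3 Terc-deficient library, so their direction followed from the minimum. Prl2c3 was listed at 0 in wild type and stood at 38.6 FPKM, Prl2c2 at 0.0874 and 20.7 FPKM, Prl8a9 was listed at 0 and stood at 2.85 FPKM, and Prl3a1 stood at 0.618 and 4.04 FPKM. In the doubly labelled culture they stood between 0 and 1.54 FPKM. Prl2c2 and Prl2c3 are near-identical copies, so the split of fragments between them is uncertain. The other 23 of 27 family genes found had a mean below 1 FPKM.

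Growth and survival factors were higher in 23 of 54 measured members and lower in 3, with a median of 0.93. Csf1, which maintains macrophages, stood at 99.3, 157, 695 and 294 FPKM in the 4 libraries, a 7.0-fold difference between G3 Terc-deficient and wild type. The hepatocyte growth factor gene Hgf stood at 1.71, 3.02, 11.8 and 12.6 FPKM, so both G3 cultures were high. Kitl, the ligand of the receptor Kit, was chosen after its values were seen and stood at 1.77 and 9.86 FPKM. Rspo2, a secreted enhancer of Wnt signalling, stood at 0.996 and 8.47 FPKM.

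Other factors were high in the G3 Terc-deficient culture alone. Angptl4, an inhibitor of lipoprotein lipase, stood at 6.87, 7.63, 43.5 and 6.64 FPKM, with the doubly labelled culture at the level of wild type. Tslp, a cytokine of epithelial barriers, stood at 0.386, 0.808, 9.16 and 0.376 FPKM with the same pattern. Vascular growth factors were chosen after their values were seen: Vegfa stood at 43.2 and 126 FPKM, Vegfc at 10.3 and 35.8 FPKM and Figf, encoding VEGF-D, at 6.0 and 24.2 FPKM, while the vessel-destabilising factor Angpt2 was lower, at 4.60 and 0.982 FPKM. Ptn, the heparin-binding factor pleiotrophin, had the lowest difference of the list, -2.59. It stood at 162, 184, 26.1 and 333 FPKM in the 4 libraries, so that the G3 cultures lay at the 2 ends of its range. Nog, an antagonist of bone morphogenetic proteins, was lower at 2.30 and 0.472 FPKM.

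Protease inhibitors had the largest list median apart from the prolactin family, 1.46, with 16 of 24 measured members higher and 2 lower. That median came to 0.75 with a pseudocount of 5 FPKM and to 2.19 with 0.1 FPKM, and over all 100 symbols found, with no minimum level, to 0. Serping1, the inhibitor of the first complement component, stood at 5.74, 6.66, 70.1 and 12.9 FPKM. Serpine2, which inhibits thrombin at the cell surface, stood at 19.1, 30.1, 191 and 71.9 FPKM, a 9.997-fold difference from wild type. Slpi, an inhibitor of neutrophil elastase, stood at 0.229 and 11.4 FPKM, and Spint2, an inhibitor of membrane serine proteases, at 2.74 and 18.8 FPKM. Reck, a membrane-anchored inhibitor of matrix proteases chosen after its values were seen, stood at 4.83 and 22.3 FPKM. The value of Serpina3g (3.95 and 20.02 FPKM) is uncertain because the Serpina3 genes are close copies of one another.

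On the lower side were 2 serpins. Serpinh1, the collagen chaperone HSP47, was the most abundant member and stood at 1508 and 753 FPKM, at the edge of the size rule, and its difference came to -0.82 under quantile normalization. Serpinb8 stood at 2.39 and 0.444 FPKM.

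Matrix glycoproteins were split, with 12 of 51 measured members higher and 11 lower. Tinagl1, a basement membrane protein, stood at 28.2 and 148 FPKM, Emilin2, a glycoprotein of elastic fibres, at 9.11 and 43 FPKM, and Ccbe1, needed for lymphatic vessel growth, at 2.35 and 15.5 FPKM. On the lower side, Npnt, the integrin ligand nephronectin, stood at 12.7 and 1.18 FPKM and the tenascin gene Tnn at 5.61 and 0.407 FPKM. Crispld2 stood at 41 and 10.3 FPKM. The galectin gene Lgals9 stood at 44.3, 45.5, 147 and 44.5 FPKM and the guidance factor gene Ntn1 at 3.92, 3.54, 15.6 and 2.41 FPKM, both high in the G3 Terc-deficient culture alone.

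Genes of proteoglycans and their sugar chains showed 13 higher and 5 lower of 51 measured. Agrin, Agrn, a heparan sulfate proteoglycan of basement membranes, stood at 15.8, 25, 99.4 and 12.4 FPKM, high in the G3 Terc-deficient culture alone. The heparan sulfate-cleaving enzyme Hpse stood at 0.231 and 6.23 FPKM, the hyaluronidase Hyal1 at 2.26 and 11.6 FPKM and the hyaluronan synthase Has1 at 0.624 and 4.67 FPKM. Enzymes that build and sulfate the chains lay on both sides. Chst1, a sulfotransferase of galactose, was higher at 0.620 and 6.07 FPKM. Chst2, a sulfotransferase of N-acetylglucosamine, stood at 56.5, 42.7, 6.14 and 13.6 FPKM, 9.20-fold lower in G3 Terc-deficient than in wild type. On the same side Hs6st1, which sulfates heparan sulfate, stood at 53.3 and 13.6 FPKM and Glce, the epimerase of the same chains, at 25.7 and 10.02 FPKM. The proteoglycan core gene Cspg4, known as NG2 on pericytes and progenitor cells, stood at 31 and 4.35 FPKM.

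**Figure D3:**
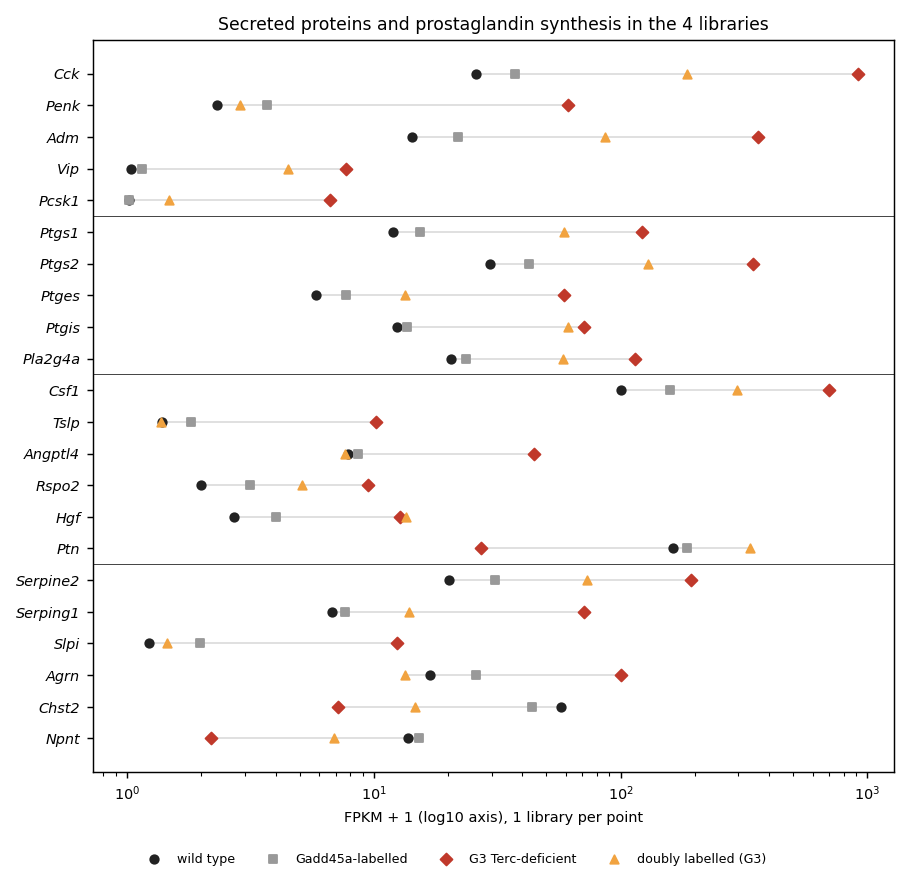
FPKM + 1 on a log10 axis in each of the 4 libraries, 1 point per library, for peptide hormones, prostaglandin enzymes, growth factors, and protease inhibitors with matrix genes (blocks from top to bottom). The G3 Terc-deficient library (diamonds) lies at the right end for all genes shown except Hgf, Ptn, Chst2 and Npnt.

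Genes of each step from membrane lipid to prostaglandin were higher in the G3 Terc-deficient culture. Of 21 measured members of the prostaglandin and leukotriene list 9 were on the higher side and 0 on the lower, the median being 0.85. Pla2g4a, the phospholipase that frees arachidonic acid, stood at 19.6, 22.7, 114 and 57.4 FPKM in the 4 libraries. Both cyclooxygenases, which convert it to prostaglandin H, were higher: the constitutive gene Ptgs1 stood at 11, 14.4, 121 and 58 FPKM and the inducible gene Ptgs2 at 28.6, 41.5, 344 and 128 FPKM. The prostaglandin E synthase gene Ptges stood at 4.82, 6.70, 57.7 and 12.4 FPKM and the prostacyclin synthase gene Ptgis at 11.4, 12.7, 69.97 and 60.3 FPKM.

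For these 5 genes the G3 Terc-deficient culture was the highest, 5.80- to 12-fold above wild type, and the doubly labelled culture came next. Slco2a1, a carrier that takes prostaglandins up, stood at 5.20 and 19.6 FPKM. The receptor genes Ptger4 (prostaglandin E) and Ptgir (prostacyclin), chosen after their values were seen, were on neither side of the size rule, at 4.87 and 3.69 FPKM and at 3.26 and 3.03 FPKM.

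The sequence before the start of Ptgs2 is shown because it is the higher member of this list that holds TTNNGCAA, the letters of a C/EBP site, and because Cebpd and Cebpb were higher in the same library (values below). It is the 250 bases before the RefSeq start at chr1:150099781-150100030 (plus strand, GRCm38.p6), with the match in capitals.
Ptgs2: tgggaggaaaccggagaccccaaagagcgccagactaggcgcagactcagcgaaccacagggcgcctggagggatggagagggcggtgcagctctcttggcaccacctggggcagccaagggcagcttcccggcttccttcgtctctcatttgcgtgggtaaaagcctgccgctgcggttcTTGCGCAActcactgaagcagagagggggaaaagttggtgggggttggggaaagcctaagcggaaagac
The match begins 69 bases before the start. Of the 8 higher members of the list with a RefSeq promoter Ptgs2 alone held these letters on either strand, against 10.8% of all promoters. Of all 20 measured members with a promoter 4 held them, the others being Abcc4, Pla2g12a and Ptgr1, which were on neither side of the size rule. The site was picked after the values were seen, and binding was not measured.

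Other enzymes of lipids and small molecules were higher in the same culture. In the list of cytochrome P450, aldehyde dehydrogenase and related genes the size rule put 23 of 60 measured members on the higher side and 6 on the lower, with a median of 0.75. Fmo2, a flavin-containing monooxygenase, stood at 0.0818 and 23.1 FPKM, and Hsd3b6, a steroid dehydrogenase, at 0.0641 and 17.3 FPKM. Ugt1a7c, a glucuronosyltransferase, stood at 1.28 and 19.6 FPKM, and its value is uncertain because the Ugt1a genes share exons. On the lower side Aldh1l2, a mitochondrial folate enzyme, stood at 29.8 and 5.88 FPKM. Members of the lipid storage list went both ways (9 higher, 5 lower of 38): the fatty acid-binding protein gene Fabp4, an adipocyte marker, stood at 4.57 and 32.2 FPKM and the lipid phosphate phosphatase gene Ppap2b at 9.70 and 65.7 FPKM, while the monoglyceride lipase Mgll stood at 8.14 and 1.87 FPKM. No other adipocyte marker was past the size rule, and 4 of the 7 were listed at 0 in both libraries.

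Retinoid genes lay on both sides of the size rule, with 7 higher and 4 lower of 24 measured. Retinoic acid is made from retinol by dehydrogenases in 2 steps and is broken down by Cyp26 enzymes. Of the aldehyde dehydrogenases that make it, Aldh1a1 stood at 1.09 and 16.5 FPKM and Aldh1a3 at 2.87 and 0.111 FPKM, in opposite directions. The retinol dehydrogenase Adh7 was lower at 8.36 and 1.11 FPKM, and Dhrs3, which turns retinal back to retinol, was higher at 2.43 and 21.9 FPKM. Cyp26b1, which degrades retinoic acid, stood at 11.3 and 3.39 FPKM and the cytoplasmic binding protein gene Crabp1 at 1355 and 621 FPKM. Rarres2, the gene of the attractant chemerin, named for its response to retinoids, stood at 1.93 and 29 FPKM, while its receptor Cmklr1 stood at 13.5 and 0.173 FPKM. Adh7, Cyp26b1 and Crabp1 were lower still in the doubly labelled culture, at 0.802, 1.21 and 181 FPKM.

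Carriers in the plasma membrane separated by what they carry. Of 28 measured amino acid carriers 10 were lower and 1 higher, with a median of -0.43. Slc7a5 and Slc3a2 form the exchanger of large neutral amino acids. Slc7a5, the transport chain, stood at 119.7, 99.5, 17.4 and 47.9 FPKM in the 4 libraries, 6.90-fold lower in G3 Terc-deficient than in wild type. Slc3a2, the anchoring chain, stood at 109, 90.5, 45.3 and 67.1 FPKM and had the same order. Carriers of cationic amino acids were also lower, Slc7a1 at 27.9 and 8.46 FPKM and Slc7a3 at 9.43 and 1.10 FPKM. The imprinted gene Slc38a4, a carrier of neutral amino acids, stood at 19 and 5.63 FPKM.

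Further lower members, chosen after their values were seen, were Slc1a5 (23.2 and 9.35 FPKM) and Slc1a4 (25 and 10.8 FPKM), both exchangers of small neutral amino acids, and the cystine carrier gene Slc7a11 (2.80 and 0.809 FPKM). The 1 higher member was Slc7a7, which exports cationic amino acids together with Slc3a2, at 1.52 and 5.58 FPKM. In the doubly labelled culture the carriers Slc7a5, Slc3a2 and Slc7a1 stood between the G3 Terc-deficient library and the 2 libraries with Terc.

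Sugar and monocarboxylate carriers went the opposite way, with 5 of 16 measured higher and 1 lower. Slc2a1, the glucose carrier GLUT1, stood at 57.3, 69, 196 and 118 FPKM. Slc16a3, the lactate exporter MCT4, stood at 28, 38.7, 121 and 78.1 FPKM. Both were highest in the G3 Terc-deficient culture, 3.42- and 4.33-fold above wild type, with the doubly labelled culture second. The intracellular glucose carrier gene Slc2a8 stood at 3.95 and 13.8 FPKM. Slc5a3, which takes up inositol as an osmolyte, was the lower one at 11.5 and 3.44 FPKM.

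The sequences before the starts of Slc2a1 and Slc16a3 are shown because both hold ACGTG, the core letters of a hypoxia response element and also part of the E-box CACGTG, in capitals. They lie at chr4:119108495-119108744 and chr11:120948817-120949066, both on the plus strand of GRCm38.p6.
Slc2a1: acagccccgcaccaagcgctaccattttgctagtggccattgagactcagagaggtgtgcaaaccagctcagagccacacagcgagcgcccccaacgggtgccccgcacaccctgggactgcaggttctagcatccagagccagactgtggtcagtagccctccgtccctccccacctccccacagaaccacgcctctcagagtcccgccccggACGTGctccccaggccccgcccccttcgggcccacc
Slc16a3: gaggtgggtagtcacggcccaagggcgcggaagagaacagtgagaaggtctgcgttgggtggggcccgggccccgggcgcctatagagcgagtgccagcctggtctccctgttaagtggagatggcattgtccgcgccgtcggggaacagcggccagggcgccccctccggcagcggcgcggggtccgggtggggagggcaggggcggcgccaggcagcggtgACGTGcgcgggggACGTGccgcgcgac
The letters begin 36 bases before the start of Slc2a1 and 27 and 14 bases before that of Slc16a3. ACGTG or its reverse complement occurs in 19.6% of all RefSeq promoters, in 2 of the 4 higher carriers with a promoter entry and in 4 of all 13 measured carriers with one. Hif1a, a factor that binds such elements and is controlled mainly at the protein level, stood at 44.6, 48.8, 202 and 115 FPKM. Oxygen was not recorded in the labels, and binding was not measured.

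Single members stood out in the other carrier lists. Slc20a1, the phosphate carrier PiT1, stood at 104, 106, 20.9 and 28.6 FPKM, lower in both G3 cultures than in both others. Slco3a1, an organic anion carrier, stood at 13.5, 14.9, 66.2 and 13.2 FPKM and was high in the G3 Terc-deficient culture alone. Slc31a2, a copper carrier of intracellular membranes, was the 1 of 23 metal carriers past the size rule, at 5.06 and 20.6 FPKM. Slc19a1, the reduced folate carrier, was lower at 12.3 and 4.83 FPKM. Among 35 mitochondrial carriers Slc25a23, which carries ATP-magnesium and phosphate, was higher at 1.99 and 10.4 FPKM, and the ADP/ATP carrier gene Slc25a5 was lower at 292 and 127 FPKM. None of 18 nucleotide-sugar carriers passed the size rule, and the greatest difference was that of Slc35b2, at 19.9 and 32.1 FPKM.

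Ion channel genes were higher in 17 of 64 measured members and lower in 1. Cacng7, an auxiliary subunit related to calcium channels, stood at 8.37 and 56.1 FPKM. It was also higher in the doubly labelled culture than in the Gadd45a-labelled one (42 against 11.8 FPKM). Others were near 0 in wild type: the calcium-activated potassium channel gene Kcnn3 stood at 0.0415 and 4.24 FPKM and the sodium channel subunit gene Scn3b at 0.0519 and 3.71 FPKM. Cacna1g, a pore-forming T-type calcium channel gene chosen after its values were seen, stood at 7.94 and 29.4 FPKM. The 1 lower channel was Fam38b, the stretch-activated channel Piezo2, at 3.85 and 1.05 FPKM.

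Gap junction genes differed in direction. Gja1, connexin 43 and the main connexin of fibroblasts, stood at 39.6, 50.1, 106 and 39.2 FPKM, high in the G3 Terc-deficient culture alone. Gjb2, connexin 26, stood at 11, 28.4, 0.0691 and 8.59 FPKM, near 0 in that culture alone. It was also lower in the doubly labelled culture than in the Gadd45a-labelled one, with a difference of -1.62. The water channel gene Aqp1 stood at 11.7, 22.2, 3.03 and 4.14 FPKM, lower in both G3 cultures than in both others.

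G protein-coupled receptors were measured in 70 of 288 symbols, with 16 higher and 12 lower. The list was made by symbol pattern and holds Agtrap, a receptor-associated protein, among the higher ones. P2ry6 and P2ry2, which sense extracellular uridine and adenine nucleotides, stood at 0.179 and 5.80 FPKM and at 2.22 and 11.1 FPKM. The angiotensin receptor gene Agtr2 stood at 0.769, 1.69, 8.58 and 5.57 FPKM, higher in both G3 cultures, the bradykinin receptor gene Bdkrb2 at 0.555 and 5.46 FPKM and the orphan receptor gene Gprc5b at 1.88 and 11 FPKM. Adora2b, an adenosine receptor chosen after its values were seen, stood at 7.68, 7.35, 17.1 and 17.1 FPKM, with near-equal levels in the G3 cultures.

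On the lower side Lgr5, the receptor of R-spondins and a marker of several stem cells, stood at 34.6, 33.6, 1.41 and 4.76 FPKM. Cmklr1, the chemerin receptor, stood at 13.5, 10.6, 0.173 and 1.14 FPKM, and F2rl1, the protease-activated receptor PAR2, at 37.3, 26.3, 5.56 and 4.0 FPKM. For these 3 receptors both G3 cultures stood far below both others. Ednra, the endothelin A receptor gene, stood at 13.6 and 1.87 FPKM. Chosen after its values were seen, Ednrb, the endothelin B receptor gene, stood at 2.08 and 0.469 FPKM and the thromboxane receptor gene Tbxa2r at 13.2 and 4.28 FPKM. Gpr30, a membrane receptor linked to oestrogen, was listed at 0 in the G3 Terc-deficient library and stood at 2.49 FPKM in wild type.

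Receptor tyrosine kinases were higher in 7 of 31 and lower in 3. Epha1, a receptor of ephrin-A ligands, stood at 1.85, 2.35, 18.4 and 6.53 FPKM, and Epha3, of the same family, at 14.8, 14.3, 2.22 and 7.30 FPKM, in opposite directions in both G3 cultures. The epidermal growth factor receptor gene Egfr stood at 12.6 and 34.1 FPKM. Pdgfrb, a receptor of platelet-derived growth factor, was lower at 141 and 61.8 FPKM, whereas the related receptor gene Pdgfra was on neither side at 33.2 and 37.1 FPKM. Flt1, a receptor of vascular endothelial growth factor and an endothelial marker, was lower at 20.5 and 2.94 FPKM. Gfra1, the co-receptor of the neurotrophic factor GDNF, stood at 32.7, 28.9, 1.93 and 9.91 FPKM, 16.9-fold lower in G3 Terc-deficient than in wild type. Unc5b, a netrin receptor, stood at 109 and 41.2 FPKM. Among 19 cytokine receptor genes Il4ra, the interleukin-4 receptor, was higher at 22.5 and 60.8 FPKM and Il2rg, the common gamma chain, lower at 2.87 and 0.504 FPKM.

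Lipoprotein and scavenger receptors lay on both sides (2 higher, 4 lower of 19). These shares were 10.5% and 21.1%, beside 10.4% and 6.25% over all genes kept. Olr1, which takes up oxidised low-density lipoprotein, stood at 0.700, 0.833, 19.4 and 6.55 FPKM. Lrp8, the receptor of apolipoprotein E and reelin, was lower at 9.14 and 3.34 FPKM. Apoe, a ligand of these receptors, stood at 23.4 and 8.57 FPKM.

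The Notch ligand gene Jag1 and several target genes were lower, while 2 receptor genes were higher. In Notch signalling a ligand on 1 cell frees the intracellular part of the receptor on its neighbour, which then joins Rbpj on target genes such as the Hey family. The ligand gene Jag1 stood at 41, 31, 8.04 and 6.18 FPKM in the 4 libraries. The target genes Hey1 and Nrarp stood at 3.63, 4.28, 0.203 and 0.275 FPKM and at 2.07, 2.36, 0.0641 and 0.0423 FPKM. Heyl stood at 2.37 and 0.0117 FPKM. For Jag1, Hey1 and Nrarp the 2 G3 cultures were close to each other and well below the other 2.

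Of the receptors Notch1, chosen after its values were seen, was lower at 9.03 and 3.22 FPKM, and Notch3 and Notch4 were higher, at 4.0 and 13.5 FPKM and at 0.0960 and 1.92 FPKM. Notch3 is also a pericyte marker, and the 5 pericyte markers summed to 35.7 FPKM in wild type against 21.0 in G3 Terc-deficient. Cspg4 made up most of the wild-type sum and was lower, at 31 and 4.35 FPKM. Like Notch3, the markers Rgs5 (0.287 and 1.93 FPKM), Kcnj8 (0.258 and 1.02 FPKM) and Abcc9 (0.172 and 0.212 FPKM) had greater values in G3 Terc-deficient. The DNA-binding partner Rbpj stood at 33.1, 30.9, 83.6 and 27.3 FPKM, high in the G3 Terc-deficient culture alone, and the receptor-modifying enzyme Lfng was lower at 3.10 and 0.268 FPKM.

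Adhesion molecules of the immunoglobulin type and others were higher in 11 of 32 and lower in 2. Cd34, a sialomucin of progenitor cells and fibroblasts, stood at 1.70, 1.17, 57.3 and 10.1 FPKM. Icam1, the leukocyte ligand, stood at 3.11, 2.83, 27.7 and 3.69 FPKM and podoplanin, Pdpn, at 44.4, 56.3, 235 and 132 FPKM. Cd34 and Pdpn were higher in both G3 cultures than in the others, and Icam1 in the G3 Terc-deficient one by a wide margin. The lower members were Lrrc15, a membrane protein of matrix-forming fibroblasts, at 93 and 19.2 FPKM, and Mcam at 59.1 and 19.7 FPKM. Of 37 cadherins and protocadherins Cdh3, P-cadherin, was lower at 50.7 and 12.3 FPKM, and Pcdh7 was higher at 13.5 and 45.6 FPKM. Protocadherin gamma values are uncertain because those genes share exons.

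**Figure D4:**
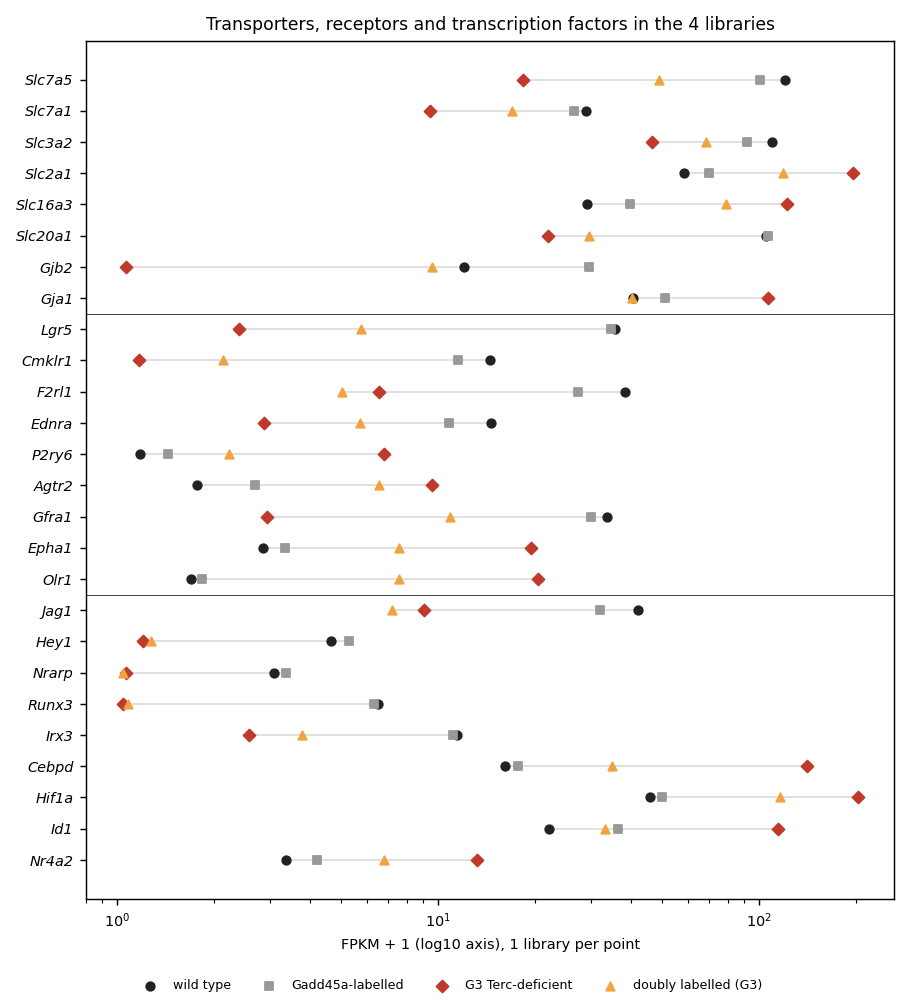
FPKM + 1 on a log10 axis in each of the 4 libraries, 1 point per library, for transporters and connexins (top block), receptors (middle) and Notch genes with transcription factors (bottom). Amino acid carriers and the receptors Lgr5, Cmklr1, F2rl1, Ednra and Gfra1 have the G3 libraries (diamonds and triangles) to the left of the other 2, and Slc2a1, Slc16a3, Agtr2, Olr1 and Hif1a have them to the right.

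Zinc finger genes, the largest transcription factor list, seldom passed the size rule. Of 281 measured zinc finger genes of the Zfp, Zkscan and Zscan names 6 (2.14%) were higher and 1 (0.356%) lower, beside 10.4% and 6.25% over all genes. The pattern-made list includes Zfp36l1, an RNA-binding protein that shortens the life of messenger RNAs, at 48.6 and 125.5 FPKM. None of 15 KLF and SP factors was higher and 2 were lower, Klf5 at 7.78, 6.61, 1.87 and 1.94 FPKM and Klf13 at 25.3, 23.7, 10.5 and 11.1 FPKM. Both of these were low in both G3 cultures.

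Among C/EBP, CREB and MAF factors 5 of 31 (16.1%) were higher and 2 (6.45%) lower, beside 10.4% and 6.25% over all genes kept. Cebpd, an activator of acute-phase genes, had the greatest difference in the transcription factor lists, 3.13, and stood at 15.2, 16.8, 140.4 and 33.8 FPKM. Its relative Cebpb stood at 72.4, 73.5, 167 and 75.9 FPKM, with 3 of the 4 libraries nearly level. Atf3, a stress-induced factor, was lower at 4.51 and 1.03 FPKM. Nuclear receptors were higher in 5 of 24 and lower in none, led by the early response gene Nr4a2 at 2.35 and 12.3 FPKM and the thyroid hormone receptor gene Thra at 11.2 and 32.2 FPKM. Retinoic acid receptor beta, Rarb, itself a target of retinoic acid, stood at 0.598 and 2.56 FPKM, with a difference of 1.16 that came to 0.93 under quantile normalization.

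Basic helix-loop-helix factors were higher in 12 of 42 and lower in 2. Id1, which blocks other members of this class, stood at 21.2, 35.4, 113 and 32 FPKM. Id2 and Id3, chosen after their values were seen, stood at 4.94 and 17.5 FPKM and at 120.3 and 269 FPKM. Arnt2, a dimer partner of hypoxia factors, stood at 2.93 and 13.9 FPKM. Mxd3 and Tfap4 were the lower ones, at 16.6 and 6.57 FPKM and at 2.84 and 0.637 FPKM.

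Single patterning factors lay on both sides. Of 51 homeobox genes outside the Hox clusters 5 (9.8%) were higher and 3 (5.88%) lower, near the 10.4% and 6.25% over all genes kept. Runx3 stood at 5.49, 5.33, 0.0412 and 0.0815 FPKM, present in both libraries with Terc and nearly absent from both G3 libraries, while Runx1 stood at 17.8 and 7.84 FPKM. The homeobox genes Irx3 (10.5 and 1.58 FPKM), Irx5 (9.90 and 3.02 FPKM) and Irx2 (29.6 and 12.3 FPKM), of 1 family, were all lower. Gata2 stood at 1.03, 2.52, 8.50 and 13.6 FPKM and Meox2 at 0.478, 0.630, 3.92 and 3.67 FPKM, both higher in both G3 cultures than in both others. Shox2, a limb patterning gene, stood at 17.5 and 49 FPKM. Snai2, a regulator of mesenchymal state, was lower at 35.7 and 15.3 FPKM, and Osr2 was lower at 2.62 and 0.370 FPKM but stood at 2.89 FPKM in the doubly labelled culture.

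Regulators of signalling and the cytoskeleton completed the description. Rgs16 and Rgs4, which shut off G protein signals, stood at 21.1 and 176 FPKM and at 3.29 and 19 FPKM. Prkar1b, a regulatory subunit of the cyclic AMP-dependent kinase, stood at 4.07 and 38.3 FPKM, while another regulatory subunit, Prkar2a, stood at 45 and 15.1 FPKM. Npr3, the clearance receptor of natriuretic peptides, stood at 1.30, 1.27, 10.8 and 15.5 FPKM. Of 10 measured intermediate filament genes 4 were lower, among them the simple epithelial keratins Krt8 (3.04, 0.531, 0.0633 and 0.626 FPKM) and Krt18 (5.52, 2.09, 1.48 and 1.22 FPKM), where wild type stood above the other 3 libraries. Stmn1, which destabilises microtubules, was lower at 149.7 and 26.9 FPKM and the tubulin gene Tuba1b at 165 and 67.6 FPKM. Of 25 phosphatase, Sprouty and Spred genes 2 (8%) were higher, below the 10.4% over all genes kept. The better expressed of these 2 was Dusp10 at 3.37 and 14.5 FPKM.

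Long non-coding RNAs were lower in 7 of 23 and higher in 3. Neat1, the scaffold of nuclear paraspeckles, stood at 37.5, 42.4, 95.8 and 117 FPKM, higher in both G3 cultures. The small nucleolar RNA host genes Snhg3 and Snhg5 were lower, at 55.4 and 24.1 FPKM and at 28.7 and 11.3 FPKM, and Snhg11 was higher at 0.190 and 15 FPKM. Rmrp and Rpph1, the RNA parts of RNase MRP and RNase P, were lower: Rmrp had 7.85 FPKM in wild type and was listed at 0 in G3 Terc-deficient, and Rpph1 stood at 11.7 and 0.825 FPKM. Both are short and lack a poly(A) tail, so poly(A) selection makes their values uncertain.

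A second pair of libraries that shares none with this comparison, the doubly labelled and the Gadd45a-labelled culture, gave the same genes a smaller spread. Of the 11676 genes 281 (2.41%) were higher and 268 (2.3%) lower there. Of the 1216 genes higher in G3 Terc-deficient, 204 (16.8%) were also higher in that pair and 5 were lower. Of the 730 lower genes, 208 (28.5%) were also lower and 2 were higher. The median difference was 1.52 and 0.53 in the 2 comparisons over the higher genes and -1.37 and -0.76 over the lower ones. Positive differences in the second pair were found for 87.8% of the higher genes, against 49% of all genes kept, and negative ones for 96% of the lower genes, against 50.9%. The 2 cultures of the second pair also differed from each other in sex. The Gadd45a-labelled culture held Xist at 0.154 FPKM and the Y-linked Ddx3y at 16.4 FPKM, and the doubly labelled one held them at 34.1 and 0.0113 FPKM. Both libraries of the first pair held Xist, at 23.96 FPKM in wild type and 30.19 in G3 Terc-deficient. The part of sex in the differences of the second pair was not tested.

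Genes past the size rule in both pairs included several of named role, taken after their values were seen from those whose smaller difference of the pair was largest. On the higher side were Dmpk, the kinase gene mutated in myotonic dystrophy (10.5, 17.4, 87.5 and 140.0 FPKM), Cpxm1, a secreted carboxypeptidase-like protein (2.98, 4.33, 101 and 37.2 FPKM), and Gpx3, the plasma glutathione peroxidase (9.86, 11.8, 59.2 and 93.6 FPKM). The complement regulators Cd55 (4.43, 4.83, 59.3 and 26.2 FPKM) and Cd59a (2.59, 2.93, 14.7 and 24.5 FPKM) and the Wnt antagonist Sfrp1 (6.52, 14.7, 36.5 and 189 FPKM) were there too. On the lower side were Col18a1, the collagen that yields endostatin (30.5, 33.8, 4.79 and 3.36 FPKM), the transcription factor Bcl11b (6.83, 5.07, 0.581 and 0.120 FPKM), the secreted protein Lrrc17 (113, 88.2, 19.8 and 19.5 FPKM) and Wnt4 (8.29, 5.95, 0.658 and 0.803 FPKM). In each of these genes both G3 libraries stood on the same side of both libraries with Terc. Because the genes were picked for large differences in both pairs, this order was largely set by the choice.

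**Figure D5:**
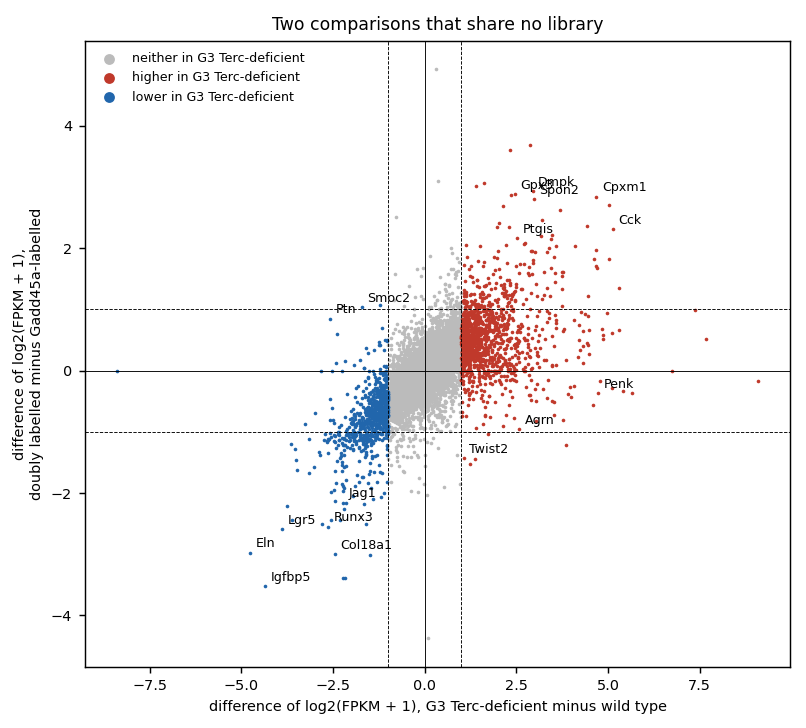
Each point is 1 of the 11676 genes kept, at its difference of log2(FPKM + 1) between G3 Terc-deficient and wild type (x axis) and between the doubly labelled and Gadd45a-labelled cultures (y axis). Genes higher (red) lie mostly above 0 on the y axis and genes lower (blue) mostly below it, over a smaller range than on the x axis.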

How the data were processed

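Poly(A)-selected RNA of 4 primary embryo fibroblast cultures was sequenced, with 1 library for each genotype, per the labels' protocols. FPKM values were deposited by the authors, 1 per gene symbol and library. The submitters' processing notes name Cufflinks 2.2.1, TopHat2 2.1.1 and the build mm9, without roles. The annotation, strand setting and filters are not given in the sources used here. Cufflinks divides fragments between near-identical copies, so their values are uncertain, as are those of overlapping and antisense genes.

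Each table held 23235 symbols, and 738 of short RNAs were left out, since FPKM is unreliable for transcripts shorter than a fragment. The difference of log2(FPKM + 1) was taken (Python 3.11.15, pandas 2.3.3, numpy 2.4.6) and a gene counted as higher or lower at 1 or more, or -1 or less. With 1 library a side nothing was tested and no error is given. The counting was tested on simulated data. Depth was estimated from FPKM of 0.05 or less on transcripts of 1500 to 8000 nt, of which 75% to 78.9% lay within 0.1 of a whole fragment, and covers counting error only. RefSeq promoters, matched by symbol, are in another build (GRCm38.p6) and were used for sequence alone. They were found for 76.9% of higher and 74.7% of lower genes, under 80%, so a comparison of promoter content between these groups is void.

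The members and lists were chosen with earlier results of these data known. The genes named are the 25 largest differences each way, up to 5 a direction from each list past the size rule (or its largest difference), the label checks and the neighbours of the minimum. Others are said to be chosen after their values were seen, and genes named by the rule may be left out of the text. Alternatives were other pseudocounts, minimums, scalings and a stricter size rule.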

Additional observations from a re-analysis of the deposited data

Results flagged for a closer look

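Of the genes past the size rule in both comparisons, 7 had opposite directions in G3 Terc-deficient against wild type and in the doubly labelled culture against the Gadd45a-labelled one, and the difference between the comparisons was not tested. Those higher in the first and lower in the second were the MHC class I gene H2-Q4 (differences of 3.85 and -1.22), Sema3e (1.73 and -1.04), the growth cone gene Gap43 (1.37 and -1.44), Hoxd11 (1.24 and -1.53) and the transcription factor Twist2 (1.07 and -1.43). Sema7a (-1.21 and 1.07) and the matrix gene Smoc2 (-1.71 and 1.04) were lower in the first and higher in the second. Twist2 stood at 169.5, 153, 357 and 56.1 FPKM in wild type, Gadd45a-deficient, G3 Terc-deficient and G3 doubly deficient as labelled, and Smoc2 at 27.2, 21.5, 7.62 and 45.2 FPKM. H2-Q4 belongs to a family of close copies, so its value is uncertain.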

How the results depend on the processing

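The main counts were 1216 higher and 730 lower genes. A pseudocount of 5 FPKM gave 595 and 330, a pseudocount of 0.1 FPKM 1535 and 929, and a size rule of 2 gave 352 and 110. With a minimum mean of 5 FPKM 770 genes were higher and 506 lower. Without a minimum the counts were 1282 and 749, under median-of-ratios scaling 1124 and 804, and under quantile normalization 1034 and 868. Higher genes made up 62.5% of those past the rule, and 54.4% under quantile normalization. No named gene took the opposite sign past the rule under these settings. Of 326 genes named by the rule 129 no longer passed it with a pseudocount of 5 FPKM, 6 under median-of-ratios scaling and 18 under quantile normalization. Of 49 lists 32 had a positive median, and between 27 and 32 under the alternatives. The size of the medians moved more: with a pseudocount of 5 FPKM it was 0.52 for peptide hormones, 0.49 for growth factors, 0.46 for the cytochrome P450 list and 1.51 for the prolactin family. Without a minimum, which adds genes at or near 0, these came to 0.14, 0.55, 0 and 0.10, the prostaglandin list to 0.21 and that of amino acid carriers to near 0. No paired analysis was possible because each genotype had 1 library. The lack of a second culture limits every difference, and low FPKM limits genes near 0.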
